A study of Mus musculus with 9 samples.

Results

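The 9 genes described here encode transcription factors that give the intestinal epithelium its identity: *Cdx1*, *Cdx2*, *Hnf4a*, *Hnf4g*, *Gata4*, *Gata6*, *Klf4*, *Klf5* and *Onecut2*. They were chosen by symbol, all 9 were found among the 54838 mouse gene identifiers of the RNA-seq tables, and all 9 passed the filter on low values. They were measured in small intestinal organoids grown in ENR medium. The crypts came from C57BL/6 males aged 2 to 4 months that carried *Vil-CreERT2* and were homozygous for the *Mettl3* fl allele. The *Vil* (villin) promoter restricts the tamoxifen-inducible Cre to epithelial cells, and every group carried this Cre and both floxed *Mettl3* alleles. The organoids received the solvent EtOH or 0.5 µM 4-hydroxytamoxifen (4-OHT), which induces the excision, for 2 days, with DMSO or the RIPK1 inhibitor necrostatin-1 (Nec-1) for 5 days. Nec-1 is listed at 5 µM in one source and at 10 µM in another. The 4-OHT Nec-1 group has 1 library, and each of the other groups (EtOH DMSO, 4-OHT DMSO and EtOH Nec-1) has 2. No organoids without Cre received 4-OHT, so an effect of the drug and an effect of the deletion cannot be told apart. No source says that the libraries came from separate cultures or animals, so the p-values measure the spread between these libraries, which may be technical.

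The authors deposited FPKM, fragment numbers scaled for transcript length and library size, so levels can be compared between genes. FPKM summed to 450207 to 498712 per library, and 11559 to 12038 genes reached 1 FPKM. The number of fragments is unknown, so no counting interval can be given. *Mettl3* ranged from 2.41 to 2.71 FPKM over the 4 libraries labelled EtOH and from 3.36 to 4.14 over the 3 labelled 4-OHT, so it was not lower after 4-OHT. These values cover the whole gene and do not resolve the floxed part, so the directions below rest on the labels of the libraries. The epithelial markers, 8 of 8 of them above 1 FPKM, summed to 3360 to 4907 FPKM, while 7 fibroblast markers summed to at most 0.73, 4 endothelial markers to at most 0.21, 5 muscle and glial markers to at most 1.33 and 8 immune markers to at most 4.40. The fibroblast marker *Lum* was at 0 in every library, but not all markers of the other lineages were near 0. The immune markers *Lyz2* and *Itgam* reached 2.63 and 2.45 FPKM, the glial marker *S100b* 1.03 and the fibroblast marker *Pdgfrb* 0.678.

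Caudal homeobox factors of the CDX family set the intestinal programme and keep the gastric one silent, with *Cdx2* as the master regulator and *Cdx1* as its paralog. *Hnf4a* and *Hnf4g* encode nuclear receptors that act redundantly on enterocyte genes for digestion and lipid handling, and HNF4 sites often lie near CDX and GATA sites in enterocyte enhancers. *Gata4* marks the proximal small intestine and represses ileal genes there, while *Gata6* is expressed along the whole gut. Among the Krüppel-like factors, *Klf5* is found in dividing crypt cells and *Klf4* in post-mitotic cells, including goblet cells. *Onecut2*, a cut-homeobox factor, is enriched in the duodenum and jejunum.

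Promoter windows are shown because they let a reader see which of these factors' binding letters lie beside the start of the factors' own genes and of 2 enterocyte genes that changed. The windows come from RefSeq on GRCm38.p6 and run from 250 bases before to 50 after a start. The letters searched on both strands were TTTATNG for CDX factors and CAAAGTCC for HNF4 factors. The gut regulator HNF1 was searched as GTTAAT and the GATA factors as AGATAA. The Krüppel-like factors were searched as GGGCGG and the ONECUT factors as ATCGAT. No match of one motif overlapped a match of another in the windows shown. Capitals mark every match on either strand. Of the 9 factors 3 matched an entry of the table, *Hnf4a* (2 alternative starts), *Cdx2* and *Klf4*, and their windows are shown with that of *Hnf4aos*, the antisense gene of *Hnf4a*. *Alpi* (intestinal alkaline phosphatase) and *Rbp2* (a retinol-binding protein) are the 2 absorptive genes listed below whose windows hold both the CDX and the HNF4 letters, and they were chosen after their values were seen.
Hnf4a, upstream start, chr2:163506607-163506906, plus strand: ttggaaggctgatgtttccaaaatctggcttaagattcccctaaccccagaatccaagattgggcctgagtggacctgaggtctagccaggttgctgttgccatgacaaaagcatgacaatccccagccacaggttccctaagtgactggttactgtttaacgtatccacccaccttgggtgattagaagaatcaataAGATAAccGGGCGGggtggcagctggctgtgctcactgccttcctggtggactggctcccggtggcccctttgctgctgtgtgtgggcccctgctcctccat
Hnf4a, downstream start, chr2:163546905-163547204, plus strand: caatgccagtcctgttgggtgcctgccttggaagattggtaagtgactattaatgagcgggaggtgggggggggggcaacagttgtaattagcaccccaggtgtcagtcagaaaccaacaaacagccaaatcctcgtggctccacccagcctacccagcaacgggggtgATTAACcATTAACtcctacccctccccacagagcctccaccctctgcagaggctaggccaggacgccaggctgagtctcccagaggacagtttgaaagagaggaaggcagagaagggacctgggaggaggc
Hnf4aos, chr2:163541672-163541971, minus strand: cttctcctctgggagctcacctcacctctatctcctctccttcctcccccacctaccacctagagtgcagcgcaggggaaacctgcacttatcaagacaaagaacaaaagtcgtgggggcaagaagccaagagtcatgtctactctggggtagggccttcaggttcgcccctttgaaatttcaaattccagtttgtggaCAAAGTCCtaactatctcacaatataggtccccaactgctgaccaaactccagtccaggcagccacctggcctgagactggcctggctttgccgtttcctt
Cdx2, chr5:147307200-147307499, minus strand: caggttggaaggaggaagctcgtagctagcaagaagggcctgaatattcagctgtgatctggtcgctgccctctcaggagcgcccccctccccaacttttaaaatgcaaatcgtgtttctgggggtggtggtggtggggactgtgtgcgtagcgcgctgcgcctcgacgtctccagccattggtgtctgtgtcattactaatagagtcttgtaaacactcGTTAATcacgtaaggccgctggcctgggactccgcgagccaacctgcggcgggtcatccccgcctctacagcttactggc
Klf4, chr4:55532426-55532725, minus strand: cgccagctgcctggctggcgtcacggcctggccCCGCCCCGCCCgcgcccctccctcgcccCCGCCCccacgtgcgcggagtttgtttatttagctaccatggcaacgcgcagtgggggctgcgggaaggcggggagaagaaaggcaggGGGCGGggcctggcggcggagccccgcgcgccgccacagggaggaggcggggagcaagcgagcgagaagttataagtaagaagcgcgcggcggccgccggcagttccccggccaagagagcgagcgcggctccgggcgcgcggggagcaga
Alpi, chr1:87101557-87101856, minus strand: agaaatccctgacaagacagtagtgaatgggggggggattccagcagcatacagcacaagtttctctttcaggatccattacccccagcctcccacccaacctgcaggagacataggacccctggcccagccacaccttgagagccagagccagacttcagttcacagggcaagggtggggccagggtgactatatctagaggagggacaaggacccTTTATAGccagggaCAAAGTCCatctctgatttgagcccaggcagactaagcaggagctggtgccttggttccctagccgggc
Rbp2, chr9:98490287-98490586, plus strand: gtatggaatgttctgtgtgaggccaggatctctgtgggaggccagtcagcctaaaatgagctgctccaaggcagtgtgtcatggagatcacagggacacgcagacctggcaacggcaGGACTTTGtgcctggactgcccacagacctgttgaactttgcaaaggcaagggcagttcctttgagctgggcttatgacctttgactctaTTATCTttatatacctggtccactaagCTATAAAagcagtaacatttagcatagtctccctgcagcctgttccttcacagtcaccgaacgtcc

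The upstream window of *Hnf4a* held 1 GATA and 1 KLF match, and its downstream window held 2 HNF1 matches. The *Hnf4aos* window held 1 HNF4 match, letters that occurred in 1.42% of all 32851 windows. *Cdx2* held 1 HNF1 match, *Klf4* 4 KLF matches of which 2 overlap each other, *Alpi* 1 CDX and 1 HNF4 match, and *Rbp2* 1 match each for CDX, HNF4 and GATA. Across all windows the CDX letters occurred in 10.9%, HNF1 in 7.10%, GATA in 11.2%, KLF in 35.7% and ONECUT in 0.925%. Among 23 absorptive genes with a window, 8 held the CDX letters, 4 HNF4, 4 HNF1, 3 GATA, 5 KLF and 0 ONECUT. A match is a run of letters and not a measured binding site.

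The levels of the 9 factors kept nearly one order in all 7 libraries, from *Hnf4a* at the top through *Cdx2*, *Klf5*, *Cdx1*, *Hnf4g*, *Gata4*, *Klf4* and *Gata6* to *Onecut2*. Each neighbour in this order was the higher one in 7 of 7 libraries, except that *Cdx1* exceeded *Hnf4g* in 6 and *Hnf4g* exceeded *Gata4* in 6. *Cdx1* and *Hnf4g* overlapped in EtOH Nec-1, and *Hnf4g* and *Gata4* overlapped in EtOH DMSO, so these neighbours did not differ beyond their spread there. *Hnf4a* ranged from 143.5 to 185 FPKM over the libraries and *Onecut2* from 1.24 to 9.28. Between its lowest and highest library *Hnf4a* varied 1.29-fold, the least of the 9, and *Onecut2* 7.47-fold, the most. In each sentence of values below, the EtOH DMSO libraries are followed by EtOH Nec-1, 4-OHT DMSO and 4-OHT Nec-1.

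**Figure D1:**
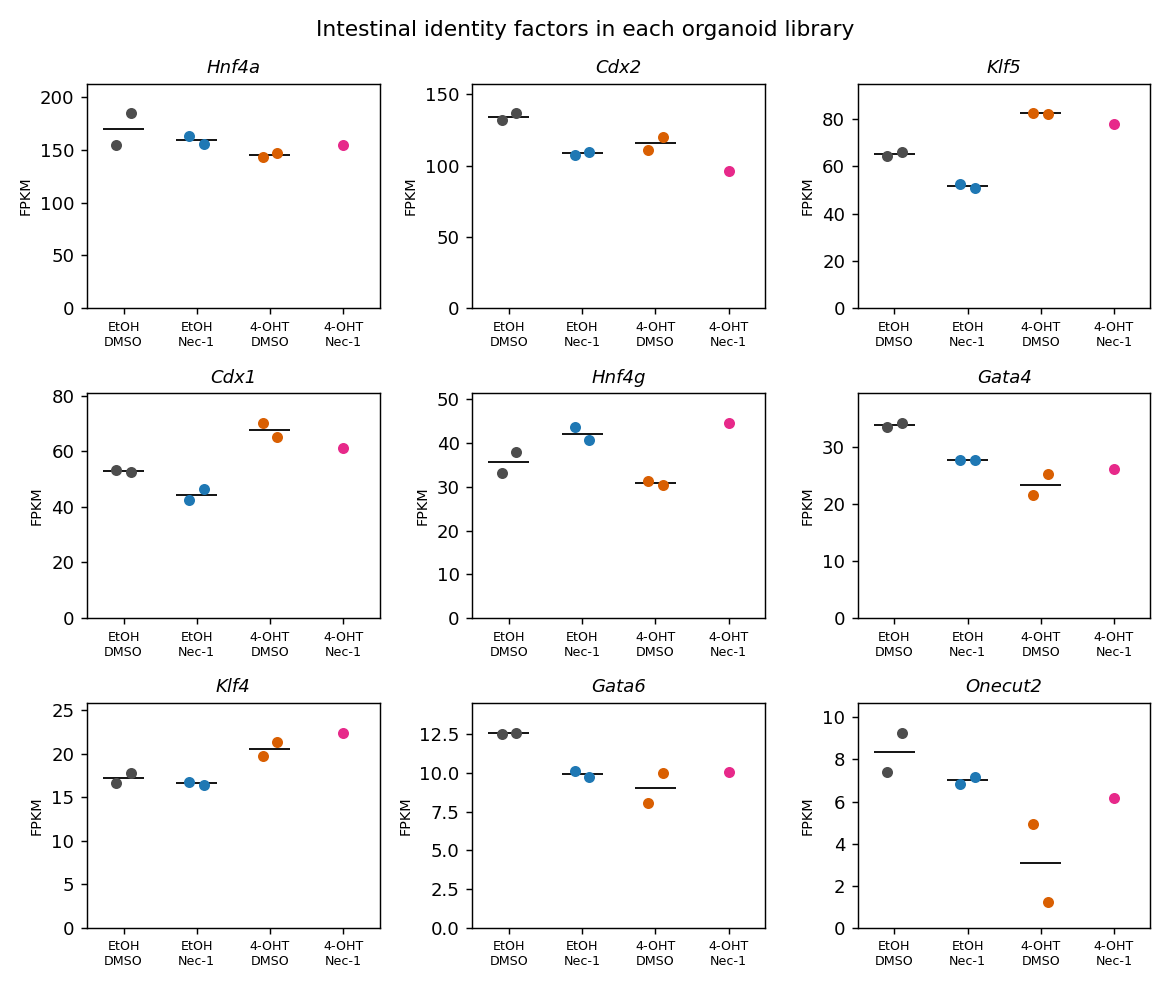
FPKM of each of the 9 factors (vertical axes, from 0, each on its own scale) in the 7 libraries, grouped along the horizontal axes. Points are libraries and lines are means of 2. The 3 libraries labelled 4-OHT sit at 78.1 to 82.6 for Klf5 against 50.8 to 66.0 in the 4 EtOH libraries, and 1 of the 4-OHT DMSO libraries stands apart for Onecut2 at 1.24.

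To ask how the libraries labelled 4-OHT differed from their solvent control, 4-OHT DMSO was compared with EtOH DMSO by limma on log2(FPKM + 1) over 12702 genes, with Benjamini-Hochberg adjusted p-values and a threshold of 0.05. *Cdx1* and *Klf5* rose, *Gata4* and *Gata6* fell, and *Cdx2*, *Hnf4a*, *Hnf4g*, *Klf4* and *Onecut2* did not pass the test. In bulk RNA, fewer cells of a type and less RNA per cell cannot be told apart. In all, 4 of 9 factors passed, beside 41.2% of all genes tested. The 2 that rose compare with 24.5% of all genes, and the 2 that fell with 16.7%. The 4-OHT DMSO and EtOH DMSO libraries did not overlap for any of the 9, with 3 factors higher and 6 lower in both 4-OHT DMSO libraries. Of all genes, 40.7% were higher and 30.8% lower in this sense.

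The scaling of the libraries bears on these directions. The median difference over all genes was 0.08 on the log2 scale in the deposited FPKM and −0.08 after each library was centred on its median, and the split of called genes turned from 3117 higher and 2120 lower to 2213 higher and 3187 lower. After centring, 6 factors were called and all 6 were lower: *Cdx2*, *Hnf4a*, *Hnf4g*, *Gata4*, *Gata6* and *Onecut2*. Upper quartile scaling also gave 6 lower and 0 higher, while *Cdx1*, *Klf4* and *Klf5* kept a positive difference without a call under both scalings. The median difference of the 9 factors was −0.22 in the deposited FPKM and −0.38 after centring. Among the 9, the calls of *Gata4* and *Gata6* alone held under all 3 scalings tried, the third being a rescaling to a common sum.

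*Cdx1* (ENSMUSG00000024619, chromosome 18, 61018862 to 61036199) stood at 53.4 and 52.7 FPKM, then 42.4 and 46.3, then 70.3 and 65.2, and finally 61.2. Both 4-OHT DMSO libraries lay above both EtOH DMSO libraries, and the 4-OHT Nec-1 library lay between these groups. The difference between 4-OHT DMSO and EtOH DMSO was 0.35 on the log2 scale (SE 0.084, limma adjusted p = 0.0244), and 0.19 after median centring (limma adjusted p = 0.145). The call was lost when any 1 of the 2 EtOH DMSO, the 2 EtOH Nec-1 or the first 4-OHT DMSO library was left out, with adjusted p of 0.055 to 0.0782 by limma.

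*Cdx2* (ENSMUSG00000029646, chromosome 5, 147300900 to 147307249) stood at 131.8 and 136.9 FPKM, then 107.3 and 109.8, then 110.7 and 120.2, and finally 96.4. The EtOH DMSO libraries were the highest, and the 4-OHT Nec-1 library was the lowest of all 7. The 4-OHT DMSO difference was −0.22 (SE 0.080, limma adjusted p = 0.078) as deposited and −0.38 (limma adjusted p = 0.0165) after centring. The genes whose pattern over the 7 libraries lay nearest to *Cdx2* were *Gk* and *Sf3b2*, at root mean square distances of 0.034 and 0.042 log2 units after each gene was centred on its mean. For *Cdx1* the nearest were *Fam214a* and the Krüppel-like factor *Klf3*, at 0.029 and 0.035.

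The order of the 2 *Cdx* genes did not change, but their ratio did. The *Cdx1*/*Cdx2* ratio, which does not depend on the scaling of a library, was 0.405 and 0.385 in EtOH DMSO, against 0.635 and 0.542 in 4-OHT DMSO. With Nec-1 it was 0.395 and 0.422 in EtOH organoids and 0.636 in 4-OHT organoids. All 3 libraries labelled 4-OHT lay above all 4 labelled EtOH. Between 4-OHT DMSO and EtOH DMSO the mean log2 ratio differed by 0.57 (exact permutation test, two-sided p = 0.33, the smallest that 2 against 2 libraries allow). This was the largest such difference of the 4 paralog pairs.

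**Figure D2:**
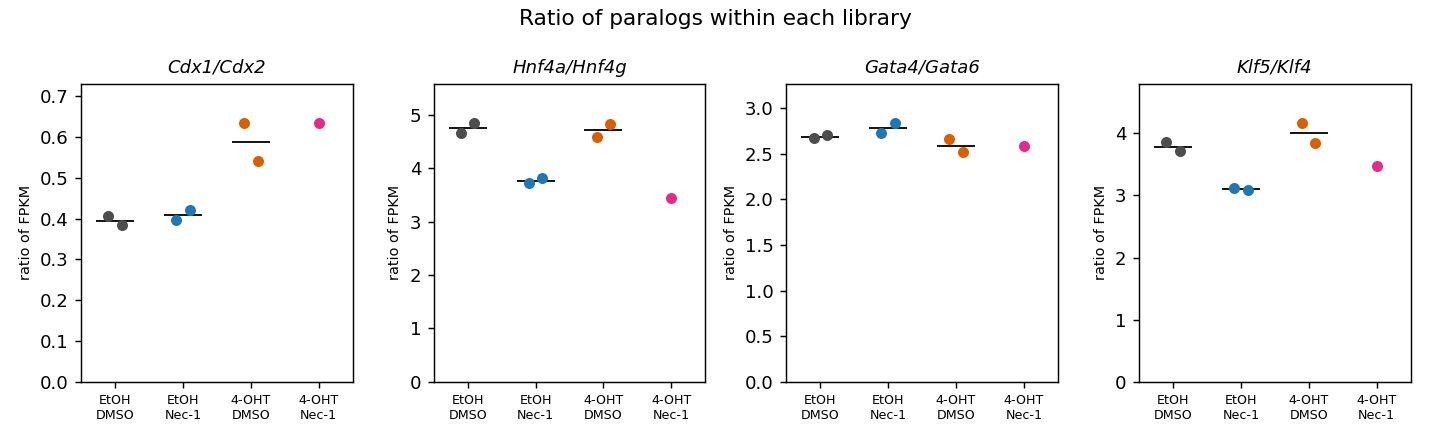
Ratio of the FPKM of 2 paralogs within each library (vertical axes, from 0, no unit), by group. Points are libraries and lines are means of 2. Cdx1/Cdx2 is 0.542 to 0.636 in the libraries labelled 4-OHT and 0.385 to 0.422 in those labelled EtOH. Hnf4a/Hnf4g is 3.45 to 3.82 in the libraries with Nec-1 and 4.59 to 4.86 in those with DMSO.

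*Hnf4a* (ENSMUSG00000017950, chromosome 2, 163506811 to 163572907) stood at 154.9 and 184.9 FPKM, then 162.7 and 155.2, then 143.5 and 146.6, and finally 154.3. The second EtOH DMSO library was the highest, and the other 6 lay within 143.5 to 162.7. The 4-OHT DMSO difference was −0.22 (SE 0.106, limma adjusted p = 0.149) as deposited and −0.38 (limma adjusted p = 0.0284) after centring. Without the second EtOH DMSO library it was −0.095 and without the first it was −0.35.

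*Hnf4g* (ENSMUSG00000017688, chromosome 3, 3508030 to 3659800) stood at 33.2 and 38.0 FPKM, then 43.7 and 40.7, then 31.2 and 30.4, and finally 44.7. The 3 libraries with Nec-1 were the highest of the 7. The 4-OHT DMSO difference was −0.20 (SE 0.095, limma adjusted p = 0.145) as deposited and −0.36 (limma adjusted p = 0.0247) after centring. The *Hnf4a*/*Hnf4g* ratio was 4.66 and 4.86 in EtOH DMSO and 4.59 and 4.83 in 4-OHT DMSO, with a difference of −0.015 in mean log2 ratio (exact permutation test, two-sided p = 0.667). With Nec-1 it was 3.72 and 3.82 in EtOH organoids and 3.45 in 4-OHT organoids, so that all 3 Nec-1 libraries lay below all 4 DMSO libraries. The nearest genes to *Hnf4a* were *Abcb8* and *Pptc7*, at 0.030 and 0.037 log2 units, and those to *Hnf4g* were *Gm6532* and *Slc16a10*, at 0.045 and 0.056.

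*Hnf4aos* (ENSMUSG00000046840), the long noncoding antisense gene on the opposite strand of *Hnf4a*, nearly disappeared from the libraries labelled 4-OHT. It spans 163493804 to 163541721 of chromosome 2 and shares 34911 bases with the *Hnf4a* locus, from 163506811 to 163541721, so it overlaps the upstream start of *Hnf4a* and ends before the downstream start shown above. The EtOH libraries held 5.02 and 4.34 FPKM with DMSO and 5.32 and 6.32 with Nec-1. The 4-OHT libraries held 0.290 and 0.200 with DMSO and 0.293 with Nec-1. The lowest EtOH library, at 4.34, lay far above the highest 4-OHT library, at 0.293, and the 4-OHT Nec-1 library was not higher than the 4-OHT DMSO libraries beyond their spread. The mean was 19.1-fold higher in EtOH DMSO than in 4-OHT DMSO. On the log2(FPKM + 1) scale, which understates changes of low genes, the difference was −2.19 (SE 0.131, limma adjusted p = 0.000491). After median centring it was −2.34 (limma adjusted p = 0.000552). The difference kept its sign in the 16 alternative settings in which *Hnf4aos* was tested, at −3.80 to −2.10. Where 1 FPKM was required in every library it was not tested, and it passed the main filter only through the EtOH libraries. The library kit does not mark strand, so reads of the shared stretch cannot be assigned to *Hnf4a* or *Hnf4aos* from strand. *Hnf4aos* was described because it overlaps a factor in the annotation. Another overlapping gene, the small nuclear RNA *Gm25881*, ranged from 0 to 1.87 FPKM. *Gm52351*, which overlaps *Cdx1*, and *Gata6os*, which overlaps *Gata6*, were not analysed here.

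**Figure D3:**
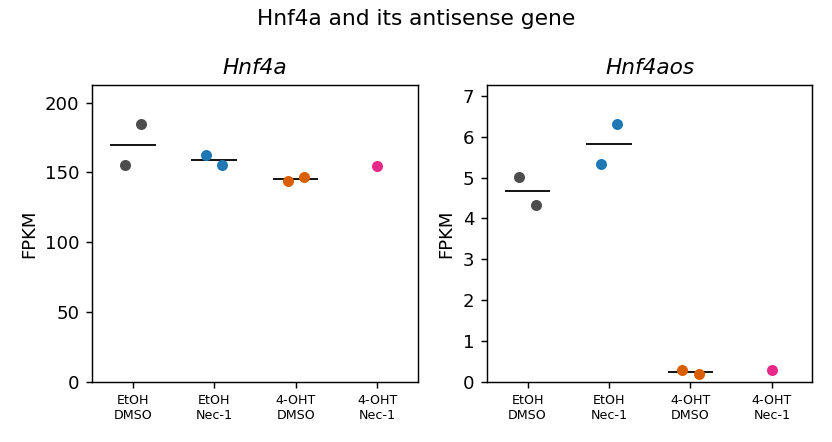
FPKM of Hnf4a (left) and of its antisense gene Hnf4aos (right) in the 7 libraries by group, on vertical axes that start at 0 and have separate scales. Points are libraries and lines are means of 2. Hnf4aos is at 4.34 to 6.32 in the 4 EtOH libraries and at 0.200 to 0.293 in the 3 libraries labelled 4-OHT, while Hnf4a ranges from 143.5 to 185 over all 7.

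*Gata4* (ENSMUSG00000021944, chromosome 14, 63198914 to 63271712) stood at 33.4 and 34.2 FPKM, then 27.7 and 27.7, then 21.5 and 25.2, and finally 26.1. Every treated library lay below both EtOH DMSO libraries. It fell by 0.52 on the log2 scale in 4-OHT DMSO (SE 0.097, limma adjusted p = 0.0105). *Gata4* was the 1 factor of the 9 whose call held in 17 of 17 alternative settings, with differences of −0.68 to −0.41 and adjusted p of 0.00353 to 0.0486 by limma.

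*Gata6* (ENSMUSG00000005836, chromosome 18, 11052510 to 11085636) followed *Gata4* at a lower level, with 12.5 and 12.6 FPKM, then 10.2 and 9.74, then 8.06 and 10.01, and finally 10.1. The EtOH DMSO libraries were again the highest. It fell by 0.44 in 4-OHT DMSO (SE 0.115, limma adjusted p = 0.0297). The call was lost when either EtOH DMSO, either EtOH Nec-1 or the first 4-OHT DMSO library was left out, with adjusted p of 0.0653 to 0.0991 by limma. The *Gata4*/*Gata6* ratio stayed within 2.52 to 2.84 over the 7 libraries, the narrowest relative range of the 4 pairs. It differed by −0.056 in mean log2 ratio between 4-OHT DMSO and EtOH DMSO (exact permutation test, two-sided p = 0.33). Within this range the 3 libraries labelled 4-OHT, at 2.52 to 2.66, lay below the 4 labelled EtOH, at 2.67 to 2.84. The nearest genes to *Gata4* were *Oxa1l* and *Ccdc138*, at 0.036 and 0.041 log2 units, and those to *Gata6* were *Bckdk* and *Cldn12*, at 0.035 and 0.039.

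*Klf5* (ENSMUSG00000005148, chromosome 14, 99298691 to 99313412) stood at 64.2 and 66.0 FPKM, then 52.3 and 50.8, then 82.6 and 82.3, and finally 78.1. All 3 libraries labelled 4-OHT lay above all 4 EtOH libraries. *Klf5* rose by 0.34 in 4-OHT DMSO (SE 0.070, limma adjusted p = 0.0152), and the difference was 0.18 after centring (limma adjusted p = 0.107). The call was lost without either EtOH Nec-1 library (limma adjusted p = 0.0517 both times).

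*Klf4* (ENSMUSG00000003032, chromosome 4, 55527137 to 55532475) stood at 16.6 and 17.8 FPKM, then 16.8 and 16.4, then 19.8 and 21.4, and finally 22.4. The libraries labelled 4-OHT again lay above all EtOH libraries. The 4-OHT DMSO difference was 0.24 (SE 0.084, limma adjusted p = 0.0651) as deposited and 0.088 (limma adjusted p = 0.406) after centring. The *Klf5*/*Klf4* ratio was 3.86 and 3.71 in EtOH DMSO, against 4.17 and 3.85 in 4-OHT DMSO. With Nec-1 it was 3.11 and 3.09 in EtOH organoids and 3.48 in 4-OHT organoids, so the DMSO groups overlapped (exact permutation test, two-sided p = 0.667) and all 3 Nec-1 libraries lay below all 4 DMSO libraries. The nearest genes to *Klf5* were *Zbtb34* and *Blnk*, at 0.040 and 0.043 log2 units, and those to *Klf4* were *Lmbrd1* and *Galnt2*, at 0.030 and 0.032.

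*Onecut2* (ENSMUSG00000045991, chromosome 18, 64340032 to 64398488) stood at 7.39 and 9.28 FPKM, then 6.85 and 7.16, then 4.92 and 1.24, and finally 6.19. Both 4-OHT DMSO libraries were below all the others, but they differed from each other by more than either EtOH group did. The difference was −1.35 (SE 0.440, limma adjusted p = 0.0572). It was −0.65 without the second 4-OHT DMSO library (limma adjusted p = 0.0317) and −2.05 without the first (limma adjusted p = 0.00149), so its size rests on a single library. In both of these fits the remaining 4-OHT DMSO library was assumed to vary like the other groups. Its nearest genes, *Gm5835* and *Gm5854*, were farther away than those of any other factor, at 0.134 and 0.154 log2 units. *Gm5854* was at 105.8 and 34.2 FPKM in the 2 4-OHT DMSO libraries and at 104.2 to 128.5 in the others.

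**Figure D4:**
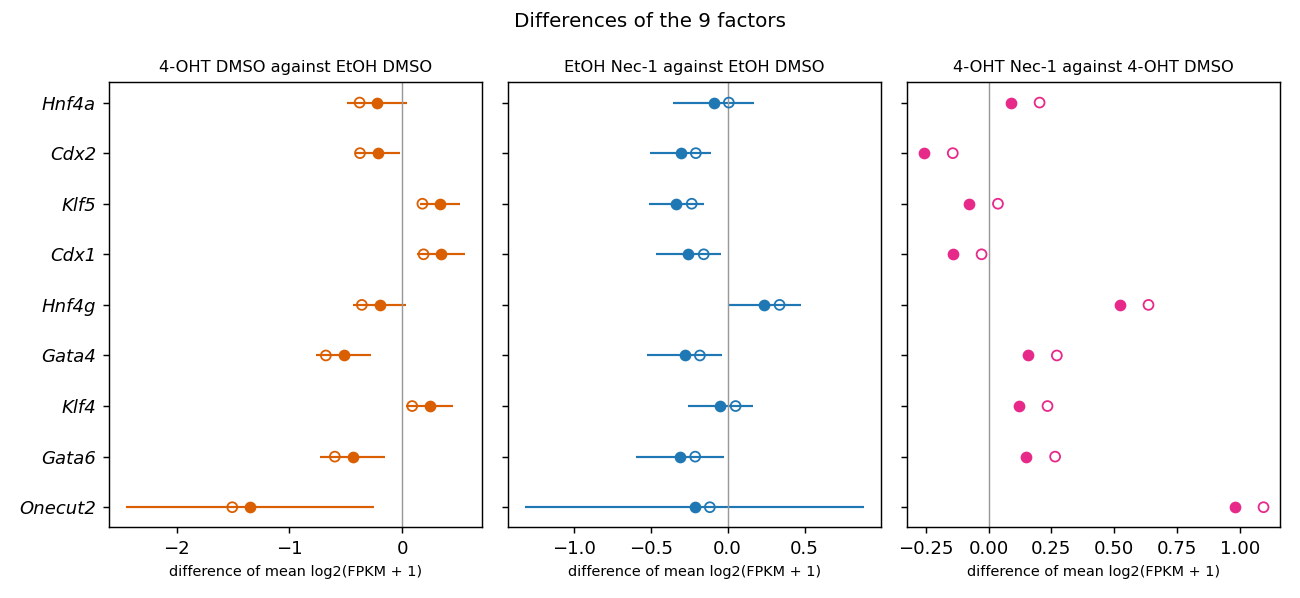
Difference of mean log2(FPKM + 1) of each factor (horizontal axes, log2 units, each panel on its own scale) in 3 comparisons. Filled points use the deposited FPKM, open points are after median centring, and bars are 95% confidence intervals from limma, drawn for the first 2 comparisons, since no test was made in the right panel, where 4-OHT Nec-1 has 1 library. Gata4 lies at −0.52 and Cdx1 at 0.35 in the left panel, and in the right panel Onecut2 lies farthest to the right, at 0.98.

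The effect of Nec-1 alone was read from EtOH Nec-1 against EtOH DMSO. No factor passed the test (0 of 9), beside 0.220% of all genes (28 of 12702), and limma adjusted p ranged from 0.201 to 0.871. At an unadjusted p under 0.05, limma gave 6 of 9 factors, beside 13.3% of all genes. Of these, *Klf5* differed by −0.33, *Gata6* by −0.31, *Cdx2* by −0.30, *Gata4* by −0.28 and *Cdx1* by −0.25, and *Hnf4g* by 0.24. After median centring *Klf5*, *Cdx2* and *Hnf4g* stayed under this unadjusted p by limma, beside 1179 of 12702 genes. *Gata6*, *Gata4* and *Cdx1* did not. *Hnf4a* at −0.091 and *Klf4* at −0.047 overlapped between the groups, and their sign turned after median centring. Both Nec-1 libraries lay below both DMSO libraries for 6 factors, beside 39.1% of all genes, and above for 1, *Hnf4g*, beside 10.5%. The median difference of all genes was −0.094 here, and −0.25 for the 9 factors. After centring the first became 0.0048 and the second −0.15. Then 5 factors were below and 2 above, beside 21.7% and 22.4% of all genes.

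The 4-OHT Nec-1 group has 1 library and no replicate, so its position was described and no test was made. This library lay outside both 4-OHT DMSO libraries for 9 of 9 factors. *Hnf4a*, *Hnf4g*, *Gata4*, *Gata6*, *Klf4* and *Onecut2* (6 factors) were above both, beside 25.5% of all genes, and *Cdx1*, *Cdx2* and *Klf5* (3 factors) were below both, beside 49.3%. The differences from the 4-OHT DMSO mean ran from −0.26 for *Cdx2* to 0.98 for *Onecut2*, with 0.52 for *Hnf4g*, 0.16 for *Gata4* and 0.15 for *Gata6*. For *Gata4*, *Gata6* and *Onecut2* the gap between the 4-OHT DMSO libraries was larger than this difference, at 0.22, 0.28 and 1.40. After centring, 7 were above and 1, *Cdx2*, was below, beside 42.3% and 31.8% of all genes. *Klf5* moved above both DMSO libraries and *Cdx1* between them.

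*Hnf4g* was higher and *Cdx2*, *Cdx1* and *Klf5* were lower with Nec-1 in both settings. After median centring *Hnf4g* and *Cdx2* kept these positions in both, while after rescaling to a common sum *Hnf4g* overlapped in EtOH organoids. Of all genes, 39.1% were lower and 10.5% higher with Nec-1 in EtOH organoids, and 49.3% lower and 25.5% higher in 4-OHT organoids. After median centring these shares were 21.7% and 22.4% in EtOH organoids, and 31.8% and 42.3% in 4-OHT organoids. The share of all genes with the same position in both settings was not computed. *Hnf4g* was 42.2 ± 2.14 FPKM (SD, n = 2) with Nec-1 and 35.6 ± 3.39 (SD, n = 2) without in EtOH organoids, and 44.7 with Nec-1 and 30.8 ± 0.610 (SD, n = 2) without in 4-OHT organoids. *Cdx2* was 108.5 ± 1.73 FPKM (SD, n = 2) with and 134.3 ± 3.59 (SD, n = 2) without Nec-1 in EtOH organoids, and 96.4 with and 115.4 ± 6.74 (SD, n = 2) without in 4-OHT organoids.

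Within Nec-1, the 4-OHT library lay above both EtOH libraries for *Cdx1*, *Hnf4g*, *Klf4* and *Klf5* (4 factors), beside 50.4% of all genes. It lay below both for *Cdx2*, *Hnf4a*, *Gata4* and *Onecut2* (4 factors), beside 38.0%, and *Gata6* lay between them. The log2 difference was 0.59 for *Klf5*, 0.46 for *Cdx1* and 0.41 for *Klf4*, and −0.17 for *Cdx2*, with no test. *Gata4*, which fell without Nec-1, differed by −0.084 here, at 26.1 FPKM against 27.7 and 27.7. These values too depend on the scaling. After median centring *Gata4* differed by −0.23 within Nec-1 and by −0.68 without it. *Hnf4g* then lay between the EtOH libraries and *Gata6* below both. With this centring 3 factors were above and 5 below, beside 39.0% and 49.4% of all genes.

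Genes that these factors are known to act on or with were described by lists. In 4-OHT DMSO against EtOH DMSO, of 27 absorptive target genes tested out of 30, 14 fell and 5 rose, with a median difference of −0.45 beside 0.08 over all genes. Of all genes, 16.7% fell and 24.5% rose. *Mep1a*, a brush border protease subunit, was at 7.87 and 7.33 FPKM in EtOH DMSO and at 1.60 and 0.681 in 4-OHT DMSO, and fell by 2.04 (SE 0.217, limma adjusted p = 0.00199). The alkaline phosphatase gene *Alpi* fell by 1.53 (limma adjusted p = 0.00178), while the partner protease subunit *Mep1b* rose by 0.85 and the aminopeptidase *Anpep* by 1.08. *Rbp2*, whose window is shown above, fell by 0.88 (limma adjusted p = 0.00248). The 8 enterocyte markers, all of them in this list, had 4 falls and 2 rises and summed to 2536 and 2767 FPKM in EtOH DMSO and to 1248 and 1307 in 4-OHT DMSO.

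Markers of other epithelial cell types moved in the same comparison. All 6 Paneth, 7 goblet and 6 enteroendocrine markers rose, with median differences of 1.26, 1.09 and 0.96, and 3 of 6 stem cell markers fell. Of all genes, 24.5% rose and 16.7% fell. *Lgr5*, 1 of the 3 that fell, was at 1.26 and 1.52 FPKM in EtOH DMSO and at most 0.729 elsewhere. It passed the filter on low values only through the EtOH DMSO libraries, so its direction is no support for a fall. Of 8 epithelial markers, 6 rose and 0 fell, but after median centring 3 epithelial and 5 goblet markers were called higher, while all 6 Paneth and 6 enteroendocrine markers kept their call. The summed Paneth markers were 7399 and 8169 FPKM in EtOH DMSO and 19155 and 19688 in 4-OHT DMSO, with 14695 when Nec-1 was added to 4-OHT. The part of these shifts in the differences of the 9 factors was not tested.

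Among 13 regional genes tested, which mark segments of the small intestine, 5 fell and 4 rose, beside 16.7% and 24.5% of all genes. Their median was −0.33, beside 0.08 over all genes. *Adh1* fell by 1.90 and *Cyp2b10* fell by 1.68, while the ileal bile acid transporter *Slc10a2* rose by 1.56 and the ileal bile acid binding protein *Fabp6* by 1.41. In the same list *Slc51a* at −0.40 (limma adjusted p = 0.0623) and *Slc51b* at 0.33 (limma adjusted p = 0.222) were not called. With Nec-1 in EtOH organoids *Fabp6* differed by 1.46 (limma adjusted p = 0.217). *Slc10a2* was at 0.737 and 1.35 FPKM in EtOH DMSO and at 5.18 and 4.75 in 4-OHT DMSO. Of 23 partner factors, 9 rose and 3 fell, with a median of 0.25, beside 24.5% and 16.7% of all genes. After median centring, and after upper quartile scaling, 5 of them were called higher and 4 lower. *Klf6* rose by 1.69 and the pioneer factor *Foxa1* by 1.61, and the Notch target *Hes1* and the vitamin D receptor *Vdr* both fell by 0.87. Of 10 further family members tested out of 22, 6 rose, all of them Krüppel-like factors (*Klf2* by 1.08), and 1 fell, *Gata5*, which fell by 0.48 (limma adjusted p = 0.0292). *Klf2* was at most 0.228 FPKM in the EtOH libraries and passed the filter only through the libraries labelled 4-OHT. The call of *Gata5* was lost without a filter on low values, with the replicate block, without either EtOH DMSO library and without the second 4-OHT DMSO library. Among the genes tested, *Klf6* and *Klf3* stand in both of the last lists.

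Of 19 gastric and foregut genes found, 12 stayed under 1 FPKM in every library and 4 were tested, of which 3 rose and 1 fell. Each of these 4 passed the filter on low values only through the libraries in which it was high. The filter therefore bears on their directions, and the counts are no support for a shift of the list. *Tff1*, a trefoil peptide of the gastric surface, was at 0.712 and 0.505 FPKM in EtOH DMSO and at 6.85 and 80.6 in 4-OHT DMSO (limma adjusted p = 0.0293). *Cldn18* rose by 1.51 and *Gkn3* fell by 1.48. The summed gastric genes were at 12.9 and 130.2 FPKM in 4-OHT DMSO and at 2.39 to 5.49 in the other libraries. The high value was in the second 4-OHT DMSO library, the one in which *Onecut2* was lowest. *Cdx2* was at 120.2 FPKM in that library and at 110.7 in the other. Of 5 colonic genes tested, 2 rose and 1 fell. The carbonic anhydrase *Car1* rose by 1.43 (limma adjusted p = 0.0462) and the anion exchanger *Slc26a3* fell by 0.81 (limma adjusted p = 0.00279).

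With Nec-1 in EtOH organoids, 2 of 27 absorptive genes fell, namely *Apoa4*, which fell by 1.62 (limma adjusted p = 0.0102), and *Apoc3*, which fell by 1.50 (limma adjusted p = 0.0323), both components of lipoproteins. Of 13 regional genes, 2 rose, *Cyp2b10* by 2.01 and *Gsta1* by 1.37, which encode enzymes of foreign compound metabolism. These counts rest on few libraries: without any 1 of the 4 libraries compared, 0 absorptive genes were called, and 1 regional gene was called without either EtOH DMSO library and 0 without either EtOH Nec-1 library. No partner factor, further family member, gastric or colonic gene passed the test (0 in each of the 4 lists), and the most abundant partner factor, *Elf3*, differed by −0.51 (limma adjusted p = 0.134), followed by *Isx* at −0.74 (limma adjusted p = 0.120). The most abundant genes tested of the other lists were *Klf6* at −0.14 and *Klf10* at −0.29, *Tff1* at −0.050 and *Gkn3* at −1.01, and *Prdx6* at −0.29 and *Slc26a3* at 0.095.

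**Figure D5:**
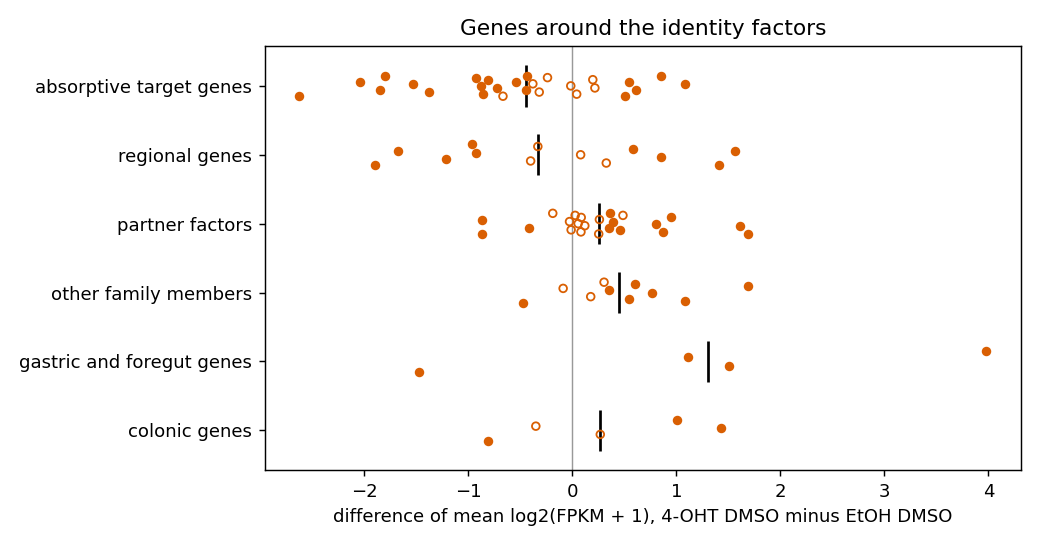
Difference of mean log2(FPKM + 1) between 4-OHT DMSO and EtOH DMSO (horizontal axis) for the tested genes of 6 lists (rows). Filled points passed the test, open points did not, vertical bars are list medians, and the vertical scatter within a row has no meaning. The absorptive target genes centre on −0.45 and the further family members on 0.45.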

How the data were processed

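The authors sequenced RNA of organoids (library kit NEBNext Ultra RNA, Illumina HiSeq X) and deposited FPKM per Ensembl mouse gene, 1 value per library, for 7 libraries in 4 groups. The submitters' processing notes name HISAT2 2.1.0 and StringTie 1.3.3b, and the labels name the mm10 build, whose coordinates are those of the GRCm38.p6 RefSeq table used here. No column was left unmapped (0). The 2 CUT&Tag samples were not analysed here.

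The 9 factors and all gene lists were chosen with earlier results of these data known. The 12702 genes that reached 1 FPKM in 2 or more libraries were tested by limma 3.58.1 in R 4.3.3 with a mean-variance trend on log2(FPKM + 1). One model with a mean for each group held all 7 libraries (3 residual degrees of freedom), and Benjamini-Hochberg adjusted p-values ran over all genes. Because the 4-OHT Nec-1 group has 1 library, its positions were described and not tested. Paralog ratios were compared by exact permutation. The script was tested on simulated data. For each list, the 2 largest rises and falls that passed were named (*Alpi* and *Rbp2* besides), or the most abundant where none passed. Some genes that this rule names are not reported here. Overlapping genes with values and the 2 nearest genes of each factor were also named. Python 3.11.15, pandas 2.3.3, numpy 2.4.6, scipy 1.17.1 and matplotlib 3.10.9 were used.

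The alternatives were median centring, limma with no trend, upper quartile scaling, rescaling to a common sum (TPM), no filter, 1 FPKM in every library, pseudocounts of 0.1 and 0.25, only the 4 libraries compared, the replicate number as a block and each library left out in turn. Pooling the ratios over all 3 against 4 libraries was chosen after the data were seen.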

Additional observations from a re-analysis of the deposited data

Results flagged for a closer look

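For 3 factors both Nec-1 libraries lay below both DMSO libraries in EtOH organoids, while the Nec-1 library lay above both DMSO libraries in 4-OHT organoids. Of all genes, 39.1% lay below in EtOH organoids and 25.5% above in 4-OHT organoids, and the share with both was not computed. *Gata4* differed by −0.28 on the log2 scale in EtOH organoids and by 0.16 in 4-OHT organoids. *Gata6* differed by −0.31 and 0.15, and in 4-OHT organoids its groups overlapped after rescaling to a common sum. *Onecut2* differed by −0.21 and 0.98, and in EtOH organoids its groups overlapped after median centring. In 4-OHT organoids these differences rest on 1 Nec-1 library. Each was smaller than the gap between the 4-OHT DMSO libraries, at 0.22 for *Gata4*, 0.28 for *Gata6* and 1.40 for *Onecut2*. The difference between the 2 settings was not tested.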

How the results depend on the processing

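FPKM without fragment counts limit these results, since the depth behind single values is unknown, and 2 libraries per group leave 3 residual degrees of freedom. For 4-OHT DMSO against EtOH DMSO, 4 factors were called, 1 with only the 4 libraries of the comparison, and 1 to 5 when a library was left out. It was 1 without either EtOH Nec-1 library and 2 without the second EtOH DMSO library. For EtOH Nec-1 against EtOH DMSO 0 factors were called in all settings, although the count over all genes moved from 28 to 8 without a filter, 43 with upper quartile scaling, 79 with only the 4 libraries and 9 to 75 with a library left out. The cause was not tested. Where leaving out a library left 1 in its group, that library was assumed to vary like the other groups. With Nec-1 in EtOH organoids, the called absorptive genes ran from 0 to 3 and the called regional genes from 0 to 2, each moving by over 1.5 times in 6 of 17 settings.

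In the Nec-1 comparison the sign turned for *Hnf4a*, at 0.0085 with median centring, 0.017 with upper quartile scaling and 0.036 without the second EtOH DMSO library (−0.22 to 0.036 over the libraries left out), and for *Klf4*, at 0.052 with median centring and 0.055 with upper quartile scaling. The *Hnf4a*/*Hnf4g* log2 ratio in 4-OHT DMSO against EtOH DMSO, −0.015, ran from −0.051 to 0.021 with a library left out and was 0.0040 over 3 against 4 libraries. The *Cdx1*/*Cdx2* log2 ratio with Nec-1 in EtOH organoids, 0.048, was −0.025 over 3 against 4 libraries. The factors outside both 4-OHT DMSO libraries numbered 8 of 9 under each scaling.

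The replicate numbers do not pair the samples: same-numbered deviations correlated at 0.0065, −0.040 and −0.012. With the replicate block, 4 factors were called with 4-OHT and 0 with Nec-1, and the count over all genes was 4697 and 19.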
